A study of Mus musculus with 8 samples.

Results

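Atoh1 and 7 other genes of basic helix-loop-helix (bHLH) transcription factors, Neurod1, Neurod2, Neurod6, Neurog1, Neurog2, Ptf1a and Olig2, were examined in chromatin accessibility maps of mouse cerebellar granule neuron progenitors (GNPs). These 8 of the 21755 protein-coding genes on the autosomes and X were chosen by symbol, and their peaks were those overlapping the annotated gene or the 50 kb on either side of it. The windows of the 8 genes held 119 of 152984 WT peaks, 83 of 106974 het peaks and 124 of 174407 mutant peaks. ATAC-seq, in which Tn5 transposase cuts open chromatin and marks it for sequencing, had been done on GNPs taken at postnatal day 7 (P7) and not cultured or treated, from a strain the labels spell C56Bl6/J. The 3 WT libraries came from Chd7 f/f mice without Cre, the 2 het libraries from Atoh1-Cre::Chd7 f/+ mice and the 3 mutant libraries from Atoh1-Cre::Chd7 f/f mice, in which the chromatin remodeller Chd7 is deleted. The study calls the WT and mutant replicates technical, and the libraries of each genotype were joined into 1 peak list, so values carry no error between libraries, and genotypes were compared without a test. The Cre acts in cells with Atoh1 enhancer activity and left some Chd7 protein in the posterior lobe, so the mutant list may include cells with Chd7.

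Proneural bHLH factors bind DNA as pairs with a widely expressed E protein, at short E-box sequences of the form CANNTG, and start neuronal fate or differentiation in a given progenitor. In the cerebellum Atoh1 marks the rhombic lip and is needed to make granule progenitors, and it maintains its own transcription through an enhancer that lies downstream of the gene. Neurod1 acts as these cells leave the cycle, and Neurod2 in granule neurons. Ptf1a, by contrast, sets the GABAergic fate of the ventricular zone, from which Purkinje cells and interneurons arise, Neurog1 and Neurog2 are expressed in progenitors or early cells of that zone or its offspring, and Olig2 is best known for the oligodendrocyte lineage and also marks early Purkinje cell progenitors. Neurod6 is mainly a forebrain factor and was kept apart from both groups. Atoh1, Neurod1 and Neurod2 are called the granule lineage genes below, and Ptf1a, Neurog1, Neurog2 and Olig2 the genes of other lineages.

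The sequences on which the comparison turned are given first, as the reference has them (mm10, plus strand unless stated), with E-box cores CAGCTG or CAGATG, the latter also as its reverse complement CATCTG, in capitals. Other CANNTG sequences, such as CAGTTG in the Atoh1 upstream peak and CAGGTG in the Neurog2 peak, are not marked or counted as cores here. The element downstream of Atoh1 is shown because it was the one Atoh1 peak whose mutant to WT ratio had a counting interval without 0, and the Atoh1 upstream peak and the bases before the Atoh1 start because they were its local reference. The first holds 1 CAGCTG, starting at base 211, and neither of the other 2 holds a core.
Atoh1 downstream element, chr6:64734357-64734656: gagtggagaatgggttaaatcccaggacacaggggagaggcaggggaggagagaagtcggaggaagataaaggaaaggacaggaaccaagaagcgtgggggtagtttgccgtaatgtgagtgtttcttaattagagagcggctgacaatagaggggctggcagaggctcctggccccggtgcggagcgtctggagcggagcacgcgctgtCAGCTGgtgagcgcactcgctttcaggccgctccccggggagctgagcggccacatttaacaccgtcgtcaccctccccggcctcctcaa
Atoh1 upstream peak, chr6:64727816-64728015: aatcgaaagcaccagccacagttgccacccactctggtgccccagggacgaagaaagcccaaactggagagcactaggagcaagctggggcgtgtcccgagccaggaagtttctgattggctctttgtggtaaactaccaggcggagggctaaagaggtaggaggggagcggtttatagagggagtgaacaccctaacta
Atoh1 before the start, chr6:64728925-64729124: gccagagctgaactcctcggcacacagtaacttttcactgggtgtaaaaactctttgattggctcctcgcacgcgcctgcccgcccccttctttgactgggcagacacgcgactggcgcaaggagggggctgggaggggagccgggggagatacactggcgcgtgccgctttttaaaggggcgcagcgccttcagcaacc
For Neurod1, the tallest WT peak of its window and the peak that was lower in the mutant each hold 1 CAGATG. For Neurog2 and Ptf1a the tallest WT peak away from the start is shown as the counterpart from another lineage, and neither holds a core.
Neurod1 tallest peak, chr2:79414699-79414898: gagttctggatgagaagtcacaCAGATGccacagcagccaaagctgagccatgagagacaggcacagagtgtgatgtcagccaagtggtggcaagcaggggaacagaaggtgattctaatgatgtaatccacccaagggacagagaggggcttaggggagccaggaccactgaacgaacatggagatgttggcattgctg
Neurod1 peak lower in mutant, chr2:79442924-79443123: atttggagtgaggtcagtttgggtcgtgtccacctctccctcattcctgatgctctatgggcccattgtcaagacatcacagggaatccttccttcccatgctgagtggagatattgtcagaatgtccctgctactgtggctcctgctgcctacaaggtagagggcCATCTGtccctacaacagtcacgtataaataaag
Neurog2 tallest peak away from the start, chr3:127625398-127625597: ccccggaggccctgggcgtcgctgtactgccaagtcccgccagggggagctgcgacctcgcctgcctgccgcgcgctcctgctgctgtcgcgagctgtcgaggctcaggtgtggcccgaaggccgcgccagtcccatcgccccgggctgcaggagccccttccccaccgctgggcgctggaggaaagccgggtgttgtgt
Ptf1a tallest peak away from the start, chr2:19448112-19448311: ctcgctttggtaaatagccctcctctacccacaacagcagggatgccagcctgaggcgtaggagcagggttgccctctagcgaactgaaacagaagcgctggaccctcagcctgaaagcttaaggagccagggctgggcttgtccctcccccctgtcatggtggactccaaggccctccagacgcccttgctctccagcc

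All 8 genes had a peak within 1 kb of their annotated start in each of the 3 lists, against 65.8% of all protein-coding genes in WT. Start peaks were thus present in these lists for genes of other lineages as well as for the granule lineage genes. The lists do not separate cell types, and which cells held these peaks was not tested. Below, rank is the percent of peaks of the same list whose −log10 q value is no higher. The strongest start peak ranked 91.9 in WT for Neurod1, 90.9 for Neurod6, 89.2 for Neurog2 and 88.05 for Atoh1. For Atoh1 this peak reaches within 1 kb only by its edge, with its summit 1209 bp before the start, and the promoter peak itself ranked 80.8. The start peaks of Neurod2, Olig2, Neurog1 and Ptf1a ranked lower, at 78.9, 74.5, 69.3 and 68.0. Over all protein-coding genes with a WT start peak the median rank was 91.1, so that only Neurod1 of the 8 lay above it. The order therefore did not follow lineage, since Neurog2 stood above Atoh1 and Neurod2. The genes also differed in the base composition of the 1000 bp around the start: the observed over expected CpG ratio was 0.853 at Neurog2, 0.755 at Neurog1, 0.648 at Atoh1 and 0.206 at Neurod6, against a median of 0.558 over all genes. The start peak of Neurod1 cannot be told apart from that of Cerkl, whose annotated start lies 34 bp away and whose body covers Neurod1.

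Most of the windows were richer in peaks than those of other genes. A protein-coding gene had a median of 6.98 WT peaks per 100 kb (interquartile range 3.97 to 9.93). Neurod2 had 22.1 WT peaks per 100 kb, more than 99.8% of genes, and Neurog1 had 18.7, more than 99.2%. Olig2, Neurod1 and Atoh1 followed with 15.5, 15.4 and 14.7 WT peaks per 100 kb. Ptf1a had 11.8 and Neurog2 10.7, and Neurod6, with 6.77, lay near the median gene. A dense window was not always one of strong peaks. Neurog1 had 19 WT peaks, of which 0 reached a rank of 80, and its tallest peak had a height of 0.476. Neurod1 had 16 WT peaks, of which 8 reached a rank of 80, and its tallest peak had a height of 1.73. Height here is the number of extended tags over the summit, scaled to 1000000 tags of the list, with a median over all WT peaks of 0.317. Of the other genes, Atoh1 had 5 of 15 WT peaks at a rank of 80 or more, Neurog2 4 of 11, Ptf1a 2 of 12, Neurod6 2 of 7, Neurod2 2 of 23 and Olig2 1 of 16.

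**Figure D1:**
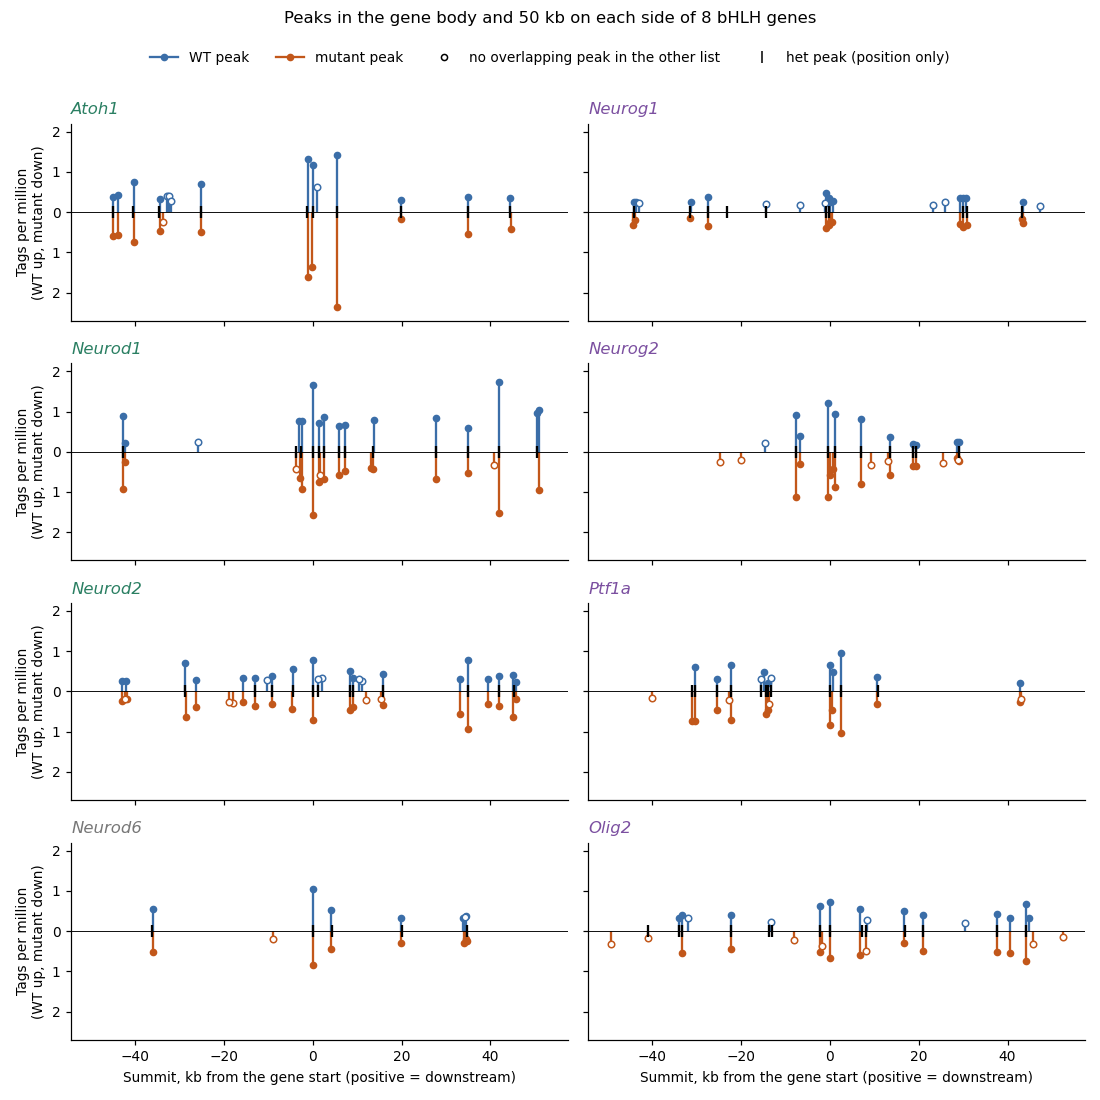
Peak summits by distance from the gene start (kb, positive downstream) for the 8 genes, with height (tags at the summit scaled to 1000000 tags of the list) for WT (up, blue) and mutant (down, orange), open circles for peaks without an overlapping peak in the other of these lists and black ticks for het peaks; granule lineage names are green, other lineages purple and Neurod6 grey. The mutant peak 5.4 kb downstream of the Atoh1 start reached a height of 2.37 against 1.43 in WT, and no unshared peak was taller than 0.615.

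Most peaks of the windows were found in both genotypes. Of the 119 WT peaks, 25 (21.01%, 95% Wilson interval 14.7 to 29.2%) were not overlapped by a mutant peak, beside 22.8% of all WT peaks. Of the 124 mutant peaks, 27 (21.8%, 15.4 to 29.8%) were not overlapped by a WT peak, beside 30.7% of all mutant peaks. The first interval held the background share, and the second ended just below it. These intervals cover counting error only. The unshared peaks were weak: their median −log10 q was 3.65 in WT, against 9.20 for shared WT peaks, and the highest was 8.45. In the mutant their median was 3.40 and the highest was 10.7, at an Olig2 peak 8.2 kb downstream with a height of 0.490, which had a WT peak within 300 bp. Among the stronger peaks, from a −log10 q of 10 upwards, 0 of 41 WT peaks and 0 of 47 mutant peaks of these windows lacked a peak of the other list within 300 bp, beside 0.417% of such WT peaks and 1.12% of such mutant peaks over the genome. When peaks within 300 bp of one another were joined across lists, the windows held 114 regions, of which 67 (58.8%) had a peak in WT, het and mutant, 15 (13.2%) in WT alone and 15 (13.2%) in mutant alone. Over the whole lists these shares were 45.7%, 13.3% and 20.1% of 190543 regions.

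The division by lineage did not separate the genes. In the granule lineage windows 10 of 54 WT peaks (18.5%, 10.4 to 30.8%) lacked a mutant peak, and in the windows of other lineages 14 of 58 (24.1%, 15.0 to 36.5%). In the opposite direction, 9 of 53 mutant peaks (17.0%, 9.20 to 29.2%) and 17 of 63 (26.98%, 17.6 to 39.0%) had no WT peak. In both directions the share was lower for the granule lineage genes, and the intervals of both groups overlapped. Single genes went further apart than the groups. Neurog1 had 7 WT peaks without a mutant peak and 0 mutant peaks without a WT peak. Neurog2 had the reverse, with 1 WT peak unshared and 6 mutant peaks unshared, and Olig2 had 4 and 7. Both kinds thus occurred within the other lineages, and the 7 Neurog1 peaks had WT heights of 0.159 to 0.258. Atoh1 had 4 unshared WT peaks and 1 unshared mutant peak. Neurod2 had 5 and 5, Ptf1a 2 and 4, Neurod1 1 and 3, and Neurod6 1 and 1.

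**Figure D2:**
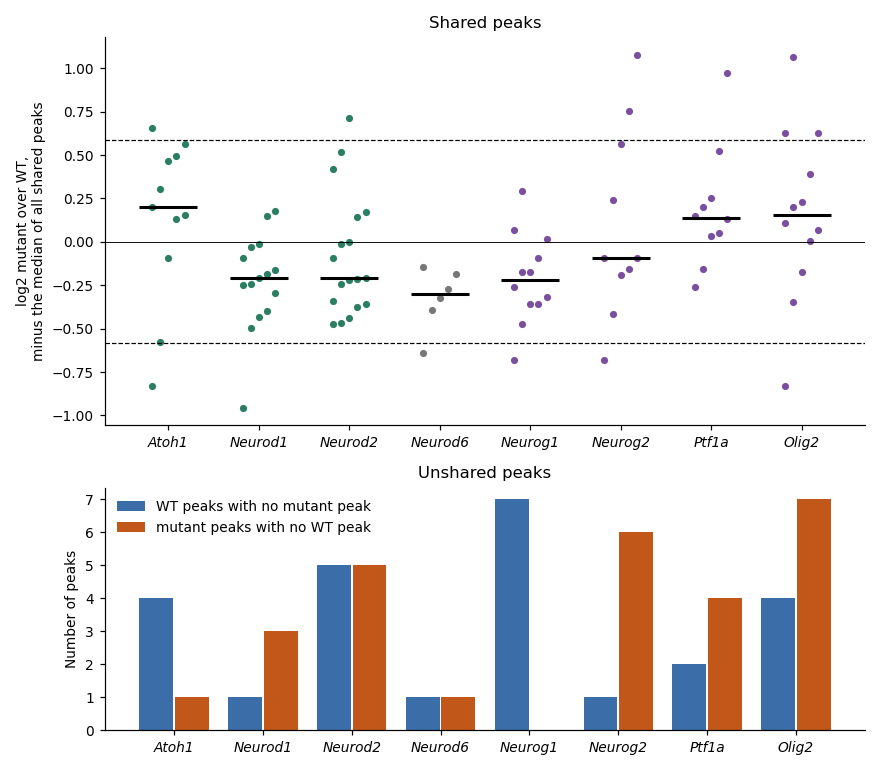
Upper panel, the log2 ratio of mutant to WT height for each shared WT peak, less the median of all shared peaks, with bars for the median of each gene and dashed lines at 1.5-fold; lower panel, the number of WT and mutant peaks without a partner; green, purple and grey mark granule lineage, other lineages and Neurod6. All 6 shared peaks of Neurod6 lie below 0, and the unshared peaks of Neurog1 are all WT peaks.

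For the 94 WT peaks that overlapped a mutant peak, the height ratio of mutant to WT was taken to the tallest overlapping mutant peak and centred on the median of all 118098 shared peaks. The median centred log2 ratio was −0.09 (interquartile range −0.31 to 0.19), with 54 peaks lower and 39 higher in the mutant. Over the genome 49.5% of shared peaks were lower and 49.9% higher. Past a 1.5-fold difference, 6 of the 94 were lower (6.38%, beside 5.1% of all shared peaks) and 8 were higher (8.51%, beside 5.96%), shares near those of the genome. The granule lineage genes had a median of −0.13 over 44 peaks, with 2 lower and 2 higher past 1.5-fold. The genes of other lineages had a median of 0.02 over 44 peaks, with 3 lower and 6 higher.

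Genes of 1 group again differed among themselves. In the granule lineage, the median was 0.20 for Atoh1, with 8 of 11 shared peaks higher in the mutant, but −0.21 for Neurod1, with 13 of 15 lower, and −0.21 for Neurod2. In the other lineages it was 0.16 for Olig2 and 0.14 for Ptf1a, but −0.22 for Neurog1 and −0.09 for Neurog2. Neurod6 had the lowest median, −0.30, with 6 of 6 shared peaks lower, between −0.15 and −0.64. Each of these Neurod6 peaks had a 95% counting interval that included 0. Set against shared peaks of the same WT height, where 48.3% of all peaks lay below the median, Neurod6 had 6 of 6 below and a median of −0.28, Neurog1 9 of 12 and −0.20, Neurod2 12 of 18 and −0.17, and Neurod1 10 of 15 and −0.14. Neurog2 had 6 of 10 and −0.05. The opposite held for Atoh1, with 3 of 11 below and a median of 0.25, Olig2, 3 of 12 and 0.18, and Ptf1a, 2 of 10 and 0.15. Het was read as fold enrichment over the local background against peaks of the same WT height. Below the median lay 10 of 14 Neurod1 peaks and 3 of 5 Neurod6 peaks, beside 48265 of 96575 over the whole lists. The other genes had 6 of 11 (Neurog1), 6 of 12 (Neurod2), 5 of 12 (Olig2), 4 of 10 (Atoh1), 3 of 10 (Ptf1a) and 3 of 9 (Neurog2).

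**Figure D3:**
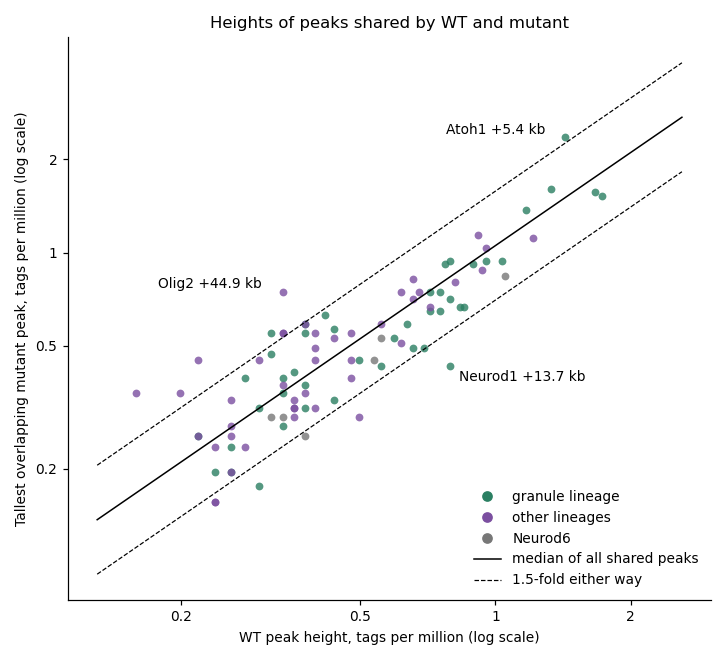
Height of each shared WT peak of the 8 windows against its tallest overlapping mutant peak, in the same scaled tags on log axes, with the median of all shared peaks (solid line) and 1.5-fold on either side (dashed). The points lie along the line, and the Atoh1 peak at +5.4 kb (1.43 to 2.37) is the tallest one past the upper dashed line.

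At Atoh1, 3 tall peaks could be compared within one locus. The gene, ENSMUSG00000073043.5 at chr6:64729125-64731245 on the plus strand, has 1 annotated exon. The promoter peak had a height of 1.17 in WT and 1.37 in the mutant, with a centred log2 ratio of 0.15 (95% counting interval −0.34 to 0.65). The upstream peak, with its summit 1.2 kb before the start, had 1.33 and 1.61, a centred log2 ratio of 0.20 (−0.27 to 0.66). Both differences were within counting error. A weak WT peak 1.0 kb past the start, with a height of 0.615 and a rank of 1.45, had no mutant partner. The downstream element, with its WT summit 3262 bp past the gene end in intergenic sequence, had 1.43 in WT and 2.37 in the mutant, a centred log2 ratio of 0.66 (0.24 to 1.08) or 1.58-fold. Its interval excluded 0. Among the 94 shared peaks of the windows, so did only those of the Neurod1 peak at 13.7 kb and the Olig2 peak at 44.9 kb. At a 95% level some of 94 intervals would exclude 0 from counting error alone, and the share over all shared peaks is not given. By fold enrichment in place of height, the centred log2 ratio of the element was 0.18, below 1.5-fold and outside its interval, so the call rests on height. Among the 8086 shared peaks with a WT pileup of 58 to 90 tags, a range set after the value was seen, 1, the element itself, reached this ratio, and the middle 90% of them lay between −0.36 and 0.15.

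The downstream element stood out in het as well. Its rank was 91.4 in WT, 99.8 in het and 98.98 in the mutant, while the upstream peak had 88.05, 90.9 and 93.8 and the promoter peak 80.8, 76.9 and 85.4. Of these peaks, only the downstream element thus came into the top percentiles, in het and in mutant. Both of these genotypes carry Cre and have reduced Chd7. Het heights are not comparable with the other lists because tags were extended by 200 bp there, so ratios within each list were used. These ratios may still depend on the extension, because the peaks differ in width, so het ratios are not strictly comparable either. The element had 1.07 times the pileup of the upstream peak in WT, 1.91 times in het and 1.48 times in the mutant, and 1.22, 2.48 and 1.73 times that of the promoter peak. By fold enrichment, whose local background itself includes the neighbouring tags, the ratios to the upstream peak were closer, 1.14, 1.46 and 1.17. The start of the element lay 473 bp further out in het and 529 bp further out in the mutant than in WT, while its end lay 215 and 221 bp further in. Het edges, like het heights, carry the longer extension, so the het extent is not directly comparable. The median peak width was 378 bp in het, 212 bp in WT and 198 bp in the mutant. The WT peak spanned chr6:64734179-64735281 (1103 bp), the het peak chr6:64733706-64735066 (1361 bp) and the mutant peak chr6:64733650-64735060 (1411 bp).

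**Figure D4:**
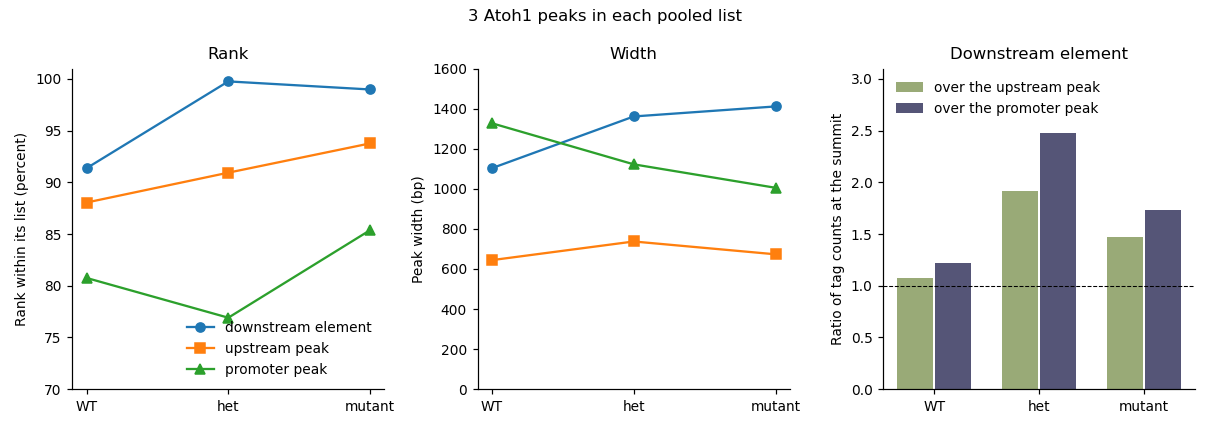
The 3 tall Atoh1 peaks in each pooled list, by rank within the list (percent, axis from 70), width (bp), and, for the downstream element, the ratio of its tags at the summit to those of the upstream and promoter peaks; each point or bar is 1 pooled list without replicates. The element ranked 91.4 (WT), 99.8 (het) and 98.98 (mutant), and its ratio to the upstream peak was 1.07, 1.91 and 1.48, in the same order. Het widths carry the longer tag extension of that list, and het ratios may depend on it.

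The Atoh1-Cre transgene of the het and mutant mice is driven by a copy of this Atoh1 enhancer, and the WT mice had no Cre. Reads from the transgene align to the endogenous sequence, so more copies of the element and more accessibility of it cannot be told apart in these lists, nor can either be told from the lack of Chd7. The whole WT peak of the element holds 2 CAGCTG cores, 60 and 259 bp past the summit, the first of them in the sequence printed above, and 0 matches to CAGATG, to its reverse complement, to the Gli sequence TGGGTGGTC or to the core CATATG.

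Het peaks overlapped 83 of the 119 WT peaks of the members and 14 of the 16 of Neurod1, while 36.9% of all WT peaks had none. The Neurod1 window held the only strong peak past 1.5-fold lower by height in the granule lineage. It lay 13.7 kb downstream of the Neurod1 start inside Cerkl, at chr2:79442908-79443718. Its height was 0.794 in WT and 0.431 in the mutant, a centred log2 ratio of −0.96 (95% counting interval −1.70 to −0.21), and its rank was 89.5 in WT, 76.0 in het and 74.6 in the mutant. In the mutant the site was split into 2 peaks, with heights of 0.431 and 0.412 and summits 13.6 and 13.2 kb from the start. The other tall Neurod1 peaks differed less. The tallest, 42.0 kb downstream inside Cerkl, had heights of 1.73 in WT and 1.53 in the mutant, a ratio of −0.25 (−0.69 to 0.19), and ranked 99.2 in WT, 98.9 in het and 98.2 in the mutant. The start peak had 1.67 and 1.57, a ratio of −0.16. The peak 27.8 kb downstream had 0.833 and 0.666, a ratio of −0.40 (−1.04 to 0.25), and that 42.7 kb upstream 0.893 and 0.921, a ratio of −0.03.

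Neurod2, whose window also holds the starts of Ppp1r1b and Stard3, was covered by many low peaks. Its start peak had a height of 0.794 in WT and 0.705 in the mutant, and the peak 34.9 kb downstream 0.794 and 0.941, with centred log2 ratios of −0.25 and 0.17, both with intervals across 0. The peak 33.2 kb downstream went from 0.317 to 0.549, a ratio of 0.71 (−0.16 to 1.59). At Neurod6 the start peak had 1.05 and 0.843, a ratio of −0.39 (−0.97 to 0.18), and ranks of 90.9 in WT, 87.6 in het and 87.5 in the mutant. Its tallest peak away from the start, at −36.1 kb, had 0.556 and 0.529, a ratio of −0.15.

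In the other lineages, Neurog2 had its tallest peaks at −0.4, 1.1, −7.6 and 6.9 kb, with WT heights of 1.21, 0.933, 0.913 and 0.814 and mutant heights of 1.12, 0.882, 1.14 and 0.803. None of these 4 ratios had an interval that excluded 0. The low Neurog2 peaks at 18.8 and 19.3 kb went from 0.198 and 0.159 to 0.353 and 0.353, ratios of 0.75 (−0.33 to 1.84) and 1.08 (−0.09 to 2.25). Ptf1a had its tallest peak 2.5 kb downstream, at 0.952 in WT and 1.04 in the mutant, and its start peak at 0.655 and 0.823, ratios of 0.05 and 0.25. A weaker start peak at 0.6 kb had 0.476 and 0.451, a ratio of −0.15. Its low peak 14.0 kb upstream had 0.218 and 0.451, a ratio of 0.97 (−0.04 to 1.99). At Neurog1 the start was covered by 4 low WT peaks, of 0.258 to 0.476, each with a mutant partner and a ratio between −0.36 and −0.09. The tallest Neurog1 peak away from the start, at −27.5 kb, had 0.377 and 0.353, a ratio of −0.17.

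The Olig2 window had 1 lower and 3 higher shared peaks past 1.5-fold. The lower one, 16.8 kb downstream, had 0.496 in WT and 0.294 in the mutant, a ratio of −0.83 (−1.74 to 0.08). Higher ratios of 0.63 were found at −34.0 and 40.7 kb, and one of 1.07 (0.25 to 1.88) at 44.9 kb. The last peak lies at the start of Olig1, another bHLH gene of the oligodendrocyte lineage. Its ratio depended on where the peaks were split: a WT peak of 0.337 and its neighbour at 44.2 kb with 0.675 share 1 mutant peak of 0.745, and the neighbour has a ratio of 0.07. The peaks at −34.0 and −33.4 kb share a mutant peak in the same way, and over all 8 windows 6 of the 94 shared peaks did. The Olig2 start peak itself had 0.714 and 0.666, a ratio of −0.18.

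When shared peaks were limited to those reaching a −log10 q of 10 in at least one list, 52 in these windows, 2 were lower and 5 higher past 1.5-fold, beside 5.32% and 7.53% of all such peaks. The lower ones were those of Neurod1 at 13.7 kb and Olig2 at 16.8 kb. The higher ones were the Atoh1 element, which was past 1.5-fold by height but not by fold enrichment (0.18), the Neurod2 peak at 33.2 kb and the 3 of Olig2. Uncentred fold enrichment also differed by less than 1.5-fold at the Neurod1 peak and at 2 of the Olig2 peaks. These were the Olig2 peaks at −34.0 kb (4.76 in WT, 6.80 in the mutant) and 40.7 kb (3.44 and 4.76). The Neurod2 peak and the Olig2 peaks at 16.8 and 44.9 kb stayed past it. Just beyond the 50 kb limit, a Neurod1 peak 2612 bp outside the window ranked 97.4 in WT, and one 3303 bp inside ranked 93.4, both with a mutant peak. An Olig2 peak 863 bp outside ranked 7.79.

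E-box cores were no more frequent in the members' peaks than elsewhere. In the 200 bp around the summit, CAGCTG was present in 19 of 119 WT peaks (15.97%, 10.5 to 23.6%), beside 23.5% of all WT peaks, CAGATG or CATCTG in 32 (26.9%, 19.7 to 35.5%), beside 28.5%, and CATATG in 5 (4.20%), beside 5.86%. The Gli sequence TGGGTGGTC, searched because Gli factors mediate the Shh response of these cells, was found in 1 peak, of a granule lineage gene, beside 0.280% of all WT peaks. In WT, CAGCTG was present in 8 of 54 granule lineage peaks (14.8%, 7.70 to 26.6%) and 10 of 58 peaks of other lineages (17.2%, 9.64 to 28.9%). The shares lay further apart in the mutant, at 6 of 53 (11.3%, 5.29 to 22.6%) and 15 of 63 (23.8%, 15.0 to 35.6%), and in het, at 4 of 35 (11.4%, 4.54 to 25.95%) and 12 of 43 (27.9%, 16.7 to 42.7%). The intervals of both groups overlapped in each list.

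The other bHLH genes placed the members within their family. Of 11 further neural bHLH genes, 10 had a WT start peak and 9 a mutant one, all 3 E proteins and all 4 Id inhibitors had one in both, and of 9 bHLH genes of other tissues, such as Myod1 of muscle, 7 had one in both. The median WT start rank was 83.5 for the members, 80.6 for the other neural genes, 91.6 for the E proteins, 92.3 for the Id genes and 45.3 for genes of other tissues. The members stood with the neural genes. Among these 27 genes the start ranks most like those of Atoh1 over the 3 lists, by the sum of absolute differences, were those of Tcf4 (6.86), an E protein, Atoh7 (9.48), a factor of retinal ganglion cells, and Id2 (10.2), a bHLH inhibitor. This order depends on the peak, since the Atoh1 ranks used were those of its upstream peak. The Atoh1 promoter peak ranked 80.8 in WT, 76.9 in het and 85.4 in the mutant. That is nearer to Olig1, with 80.6, 79.8 and 83.6, than to Tcf4. Of the start peaks of the 27 genes and the members that had a partner in the other list, 1, that of Myod1, was past 1.5-fold lower in the mutant, with a ratio of −0.62, and 0 were past it higher. Over all shared peaks 5.1% were past it lower and 5.96% higher. With so few genes, these counts do not show that start peaks differ from other shared peaks.

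**Figure D5:**
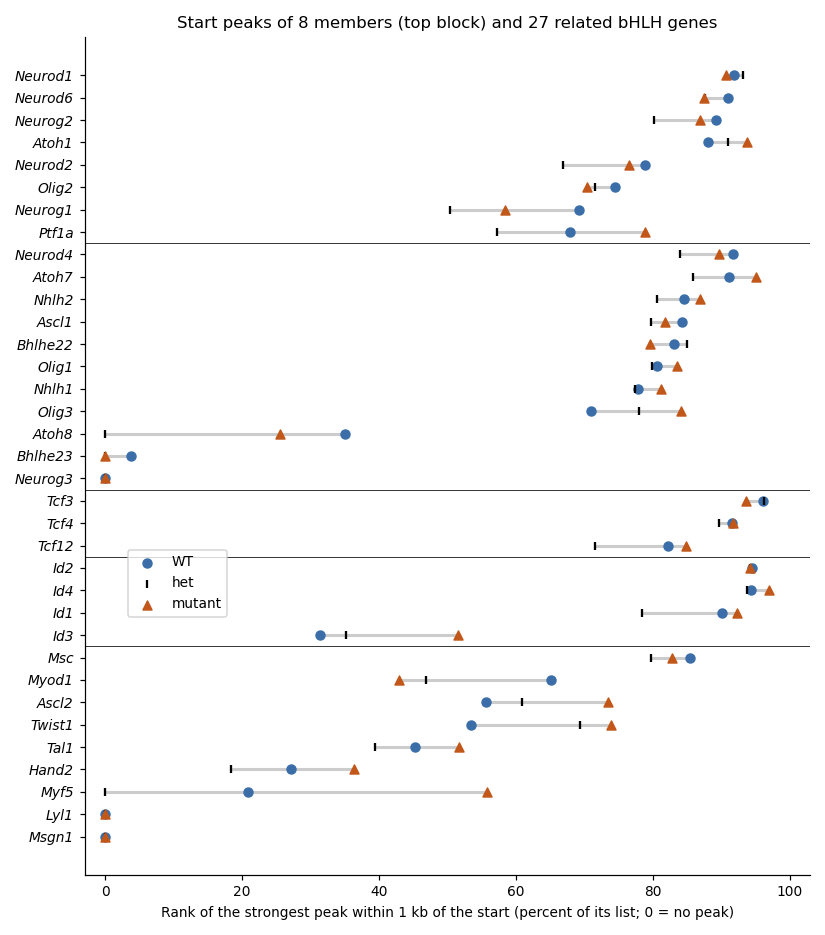
Rank (percent of its list, 0 for no peak) of the strongest peak within 1 kb of the start in WT, het and mutant, for the 8 members (top block) and below them the other neural bHLH genes, E proteins, Id inhibitors and bHLH genes of other tissues. The members lie between 50.3 and 93.8 in all 3 lists, with Atoh1 read from its upstream peak.

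Of the markers of the labelled cell type, 9 of 9 granule progenitor markers had a start peak in every list, with a median rank of 83.3 in WT, 82.0 in het and 86.9 in the mutant. Of all protein-coding genes, 65.8% had a start peak in WT, 63.9% in het and 66.6% in the mutant. Their median ranks were higher than those of the markers, at 91.1, 88.8 and 92.3. In WT, start peaks were also present for 3 of 4 granule neuron markers, 3 of 4 Purkinje cell markers, 2 of 2 markers of GABAergic interneurons, 1 of 3 of astroglia and 1 of 3 of endothelium, and for 1 of 4 oligodendrocyte lineage markers in WT and het and 2 of 4 in the mutant, while 0 of 3 microglial markers had one in any list. The Purkinje cell markers had median ranks of 71.7 in WT, 81.5 in het and 79.0 in the mutant, with 0 for Pcp2 and 92.9 for Car8 in WT, the latter above the median of the progenitor markers. Their part in the peaks of Ptf1a, Neurog1, Neurog2 and Olig2 was not tested, and fewer cells with an open site and less opening per cell cannot be told apart. Chd7 had a start peak in all 3 lists (rank 75.5 in WT, 74.7 in het and 83.5 in the mutant), which does not check the deletion.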

How the data were processed

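ATAC-seq peaks of WT, het and mutant GNPs were used as deposited. Per the file headers and the submitters' processing notes, the authors aligned reads to mm10 and called narrow peaks with MACS2 2.1.0.20150731 on the pooled libraries of a genotype (q cutoff 0.05, no control). The lists held 50394313 tags for WT, 30923002 for het and 51030229 for mutant after duplicate removal. Header paths name STAR for WT and mutant and bowtie for het, tag sizes were 107, 107 and 76 bp, and tags were extended to 90, 200 and 88 bp, so het entered by presence, rank, fold enrichment and ratios within its list. Het edges and widths were given only at Atoh1. The deposited pileup, a signal not scaled to depth, was scaled to 1000000 tags of its list to give height. Fold enrichment (a ratio over local background) and −log10 q values were taken as the authors' caller gave them.

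Windows and starts came from GENCODE M21 and sequences from the GRCm38.p6 reference. Overlap by 1 bp counted as shared. Scripts were checked on simulated peaks (Python 3.11.15, pandas 2.3.3, scipy 1.17.1). Peaks described singly were those at starts, the tallest elsewhere per gene, those past 1.5-fold at a −log10 q from 10, and those within 10 kb downstream of Atoh1. Further Neurod1, Neurog2 and Ptf1a peaks were named after their values were seen. Genes, lineages, marker lists and tests were chosen with earlier results of these data known. Counting intervals treat tags as independent.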

Additional observations from a re-analysis of the deposited data

How the results depend on the processing

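With gene windows of 10 kb on each side, 42 WT peaks remained of 119 and the median centred log2 ratio was −0.19 rather than −0.09. With a minimum −log10 q of 5, 74 WT peaks were counted, of which 6.76% lacked a mutant peak (5.78% of all such WT peaks), and 5.06% of mutant peaks lacked a WT peak (11.2% of all). With a reciprocal overlap of 50% these shares were 38.7% and 41.1% (35.9% and 43.8% of all peaks), and with peaks within 300 bp counted as shared the mutant share was 13.71% (26.5% of all), against 21.01% and 21.8% as reported. By fold enrichment the Atoh1 downstream element had a ratio of 0.18 in place of 0.66. Counting by summit, leaving out peaks at starts of other genes, no centring, the nearest summit as partner and, chosen after seeing the data, centring on peaks of the same WT height or leaving out the Atoh1 element moved no value beyond its interval. No paired analysis was possible because the libraries of each genotype were pooled before peaks were called, and no library could be left out for the same reason. No list holds a peak under 7 tags, which limits what can be said of weak sites.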
